A study of Mus musculus with 6 samples.

Results

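The 9 genes described here are 3 embryonic globins, Hbb-y, Hbb-bh1 and Hba-x, and 6 enzymes of heme synthesis, Alas1, Alas2, Urod, Cpox, Ppox and Fech. They were taken by gene symbol from the probe annotation of the array, in which each of the 9 had exactly 1 probe set, out of 22961 annotated probe sets and 34760 in all, and of 19937 genes that have a probe set of their own. No embryonic globin shared a probe set with another gene; the 4 probe sets that carry several globin symbols all belong to the adult alpha and beta globins, and they are described beside the members. RNA came from Lin- hematopoietic cells of C57BL6 Rosa26rtTA mice, that is, cells depleted of those with mature lineage markers and carrying a reverse tetracycline transactivator at the Rosa26 locus. The cells were grown in serum-free medium with 50 ng/ml each of stem cell factor, interleukin 11 and Flt3 ligand and 20 ng/ml of interleukin 3, received a lentiviral vector 24 h after isolation and doxycycline (1 µg/ml) 24 h after the vector, and were sorted for EGFP. In 3 arrays the vector carried EVI1, an IRES and EGFP, and in the other 3 it carried EGFP alone, both under a tetracycline-responsive promoter, so that the transactivator, the doxycycline, the cytokines and EGFP were common to both groups. The sort is placed 20 h after doxycycline in the series' design and the RNA preparation 24 h after it in the treatment protocol. Whether the replicates came from different animals, cultures or transductions is not stated, so p-values measure the spread between these arrays only, which may be technical. No erythropoietin is named among the cytokines.

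Hemoglobin is a tetramer of alpha-like and beta-like globin chains, each holding a heme. In the mouse the embryonic chains, zeta (Hba-x), epsilon-y (Hbb-y) and beta-h1 (Hbb-bh1), are made by primitive red cells of the yolk sac, and the adult chains (Hba-a1 and Hba-a2, Hbb-bs and Hbb-bt) by the definitive red cells that follow. Heme is built from glycine and succinyl-CoA: a mitochondrial aminolevulinate synthase, Alas1 in most cells and Alas2 in red cell precursors, makes the first intermediate, cytosolic enzymes, among them Alad, Uros and Urod, turn it into coproporphyrinogen, and Cpox, Ppox and Fech complete the ring and insert the iron in the mitochondrion. In red cell precursors Alas2, several of these enzymes and the globins are switched on together, while Alas1 supplies heme for cytochromes and other enzymes and is held down by heme itself.

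The promoters of a globin that rose (Hbb-y), an embryonic globin that did not pass the test (Hba-x), an adult alpha globin gene (Hba-a1, which shares its probe sets, both of which rose, with Hba-a2) and the erythroid synthase (Alas2) are printed because these genes, which share erythroid control, differed in how they moved. Each line gives the 200 bases before the RefSeq transcription start, 5′ to 3′ on the gene's own strand, in build GRCm38.p6. Capitals mark GATAA (bound by GATA factors), CACCC (bound by Klf factors), CCAAT, and the TATA-like ATAAA and ATATAA, each searched on both strands; in Hba-x the TATA-like motifs overlap each other, and in Alas2 GATAA overlaps ATAAA on the opposite strand.
Hbb-y (chr7:103853208-103853407, minus strand): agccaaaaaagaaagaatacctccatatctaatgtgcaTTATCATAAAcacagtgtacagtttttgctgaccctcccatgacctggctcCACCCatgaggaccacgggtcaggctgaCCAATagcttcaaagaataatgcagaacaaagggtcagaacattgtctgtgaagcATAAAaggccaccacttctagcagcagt
Hba-x (chr11:32276400-32276599, plus strand): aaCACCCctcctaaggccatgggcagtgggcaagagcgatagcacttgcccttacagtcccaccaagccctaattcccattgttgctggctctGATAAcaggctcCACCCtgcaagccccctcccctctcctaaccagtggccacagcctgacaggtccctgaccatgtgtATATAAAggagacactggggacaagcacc
Hba-a1 (chr11:32283472-32283671, plus strand): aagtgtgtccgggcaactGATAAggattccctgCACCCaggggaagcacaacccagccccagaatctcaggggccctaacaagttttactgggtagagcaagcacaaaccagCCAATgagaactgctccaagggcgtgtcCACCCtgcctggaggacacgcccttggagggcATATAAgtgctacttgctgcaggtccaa
Alas2 (chrX:150547217-150547416, plus strand): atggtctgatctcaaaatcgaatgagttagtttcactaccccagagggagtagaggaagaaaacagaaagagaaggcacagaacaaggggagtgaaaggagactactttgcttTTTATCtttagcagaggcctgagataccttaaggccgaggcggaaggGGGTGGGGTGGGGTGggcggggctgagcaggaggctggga

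All 4 stretches hold GATAA and CACCC. Positions are those of a motif's first base, counted back from the start. In Hbb-y GATAA lies at -162 on the opposite strand, CACCC at -111, CCAAT at -83 and the TATA-like ATAAA at -157 and -28. In Hba-x GATAA lies at -107, CACCC at -198 and -95 and ATATAA at -29, and no CCAAT was found. In Hba-a1 GATAA lies at -182, CACCC at -167 and -60, CCAAT at -88 and ATATAA at -28, and the window of its neighbour Hba-a2 holds the same motifs. In Alas2 GATAA lies at -86 and CACCC at -40, -35 and -30, all on the opposite strand, and no CCAAT was found. These are common letters: of 32851 RefSeq windows of 250 bases before a start, 22.6% hold GATAA, 52% CACCC, 33.8% CCAAT, 37.3% ATAAA and 9.1% ATATAA. The 9-base motifs GACAAGATA and GAAGATGAG, for the first and the second zinc finger domains of EVI1, were found in 0.107% and 0.347% of all windows and in none of the windows of the 16 globin and heme synthesis genes that the table holds, out of 24 looked for. No window was listed for Hbb-bh1. A match describes the letters only, and the absence of one says only that these letters are not in this window.

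Over the series, medians of the 6 arrays lay between 7.44 and 7.50 on the log2 scale of RMA values, and the median difference over all annotated probe sets was 0.0021. Values at or below 6.95 in the EGFP arrays, against 6.98 in the EVI1 arrays, the 95th percentiles of 1035 olfactory receptor probe sets, are called near background here, since these genes are silent in blood cells; this is a rough guide, because probe sets differ in affinity. Mecom, the locus that encodes EVI1, did not check the labels: its brighter probe set averaged 6.92 in the EGFP arrays, against 6.32 in the EVI1 arrays (difference -0.60, limma adjusted p = 0.185), and whether it reads the vector's sequence is not known. The groups are therefore named by their labels, and every direction is that of the labels. EGFP replicate 2 was the least like its own group (mean correlation 0.979, against 0.982 to 0.989 for the others) and had an array weight of 0.445, against 0.883 to 1.59. All 11 measured hematopoietic and progenitor markers lay above the olfactory level in both groups. By limma 8 of them fell in the arrays labelled EVI1, among them Cd34 (-2.45 ± 0.20 SE), and 2 rose. Among all annotated probe sets 8.43% fell and 8.16% rose. In cells measured in bulk, fewer cells of a type and less RNA per cell cannot be told apart.

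Of the 3 embryonic globins, Hbb-y alone passed the test, and it rose. Hbb-y, the epsilon-like chain of the yolk sac, measured 6.07, 6.28 and 5.996 in the EGFP arrays, against 8.69, 8.65 and 9.27 in the EVI1 arrays. Every EVI1 array was more than 2 log2 units above every EGFP array, and the EGFP values lay near background. The means were 6.12 ± 0.15 and 8.87 ± 0.35 (SD, n = 3 arrays each), a difference of 2.76 ± 0.18 (SE) or 6.76-fold (95% interval of the log2 difference 2.34 to 3.18, limma adjusted p = 0.000144). Since the EGFP mean was near background, where array signals compress, the fold is uncertain in size. Across all annotated probe sets 16.6% changed, 8.16% upward and 8.43% downward, and the values of the groups did not overlap for 31.7%.

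Hbb-bh1, the other embryonic beta-like chain, measured 5.19, 5.43 and 5.45 in the EGFP arrays, against 5.60, 5.78 and 5.45 in the EVI1 arrays. All 6 values lay near background and the groups overlapped. The difference of 0.25 ± 0.13 (95% interval -0.05 to 0.55) did not pass (adjusted p = 0.280), and at this signal a change in its RNA may not have been detectable. Hba-x, the embryonic alpha-like chain, measured 7.36, 7.21 and 7.29 against 7.19, 7.09 and 7.54. The groups overlapped here too, with EVI1 replicate 3 highest and EVI1 replicate 2 lowest. The difference was -0.01 ± 0.14 (95% interval -0.34 to 0.31, adjusted p = 0.972). The means of Hba-x, 7.29 and 7.27, lay only just above background, so a change in its RNA may not have been detectable either.

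**Figure D1:**
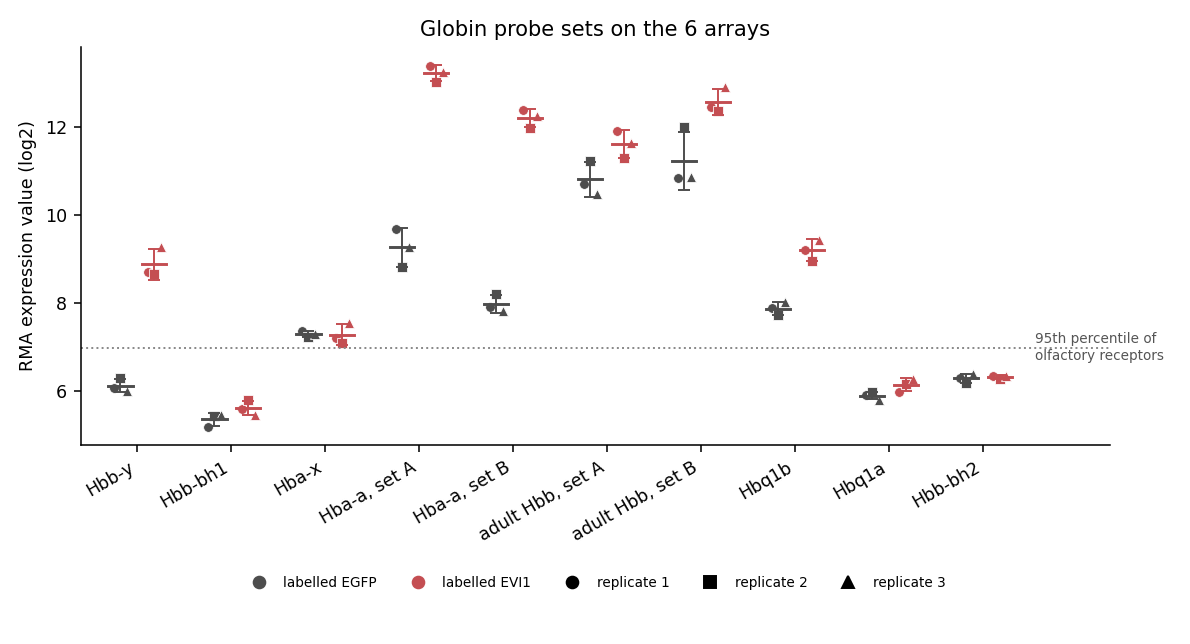
RMA expression values (log2) of 10 globin probe sets on each array; grey marks arrays labelled EGFP, red those labelled EVI1, shapes the replicate numbers, bars the mean and SD (n = 3 arrays). Hbb-y goes from a mean of 6.12 to 8.87 and the alpha globin sets from 9.26 and 7.97 to 13.21 and 12.20, while Hbb-bh1, Hba-x and Hbb-bh2 overlap between the groups; the dotted line is the 95th percentile of olfactory receptors in the EVI1 arrays (6.98).

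The adult alpha globins rose. Hba-a1 and Hba-a2 encode the same adult alpha chain and cannot be told apart on this array: both of their probe sets, 10375051 (set A) and 10375058 (set B), carry both symbols. Set A measured 9.69, 8.82 and 9.27 in the EGFP arrays, against 13.37, 13.02 and 13.25 in the EVI1 arrays. Set B measured 7.90, 8.19 and 7.82 against 12.38, 11.97 and 12.24. In each set all EVI1 arrays lay over 3 log2 units above all EGFP arrays. The differences were 3.96 ± 0.22 (15.5-fold, limma adjusted p = 6.99e-05) for set A and 4.22 ± 0.15 (18.7-fold, adjusted p = 9.9e-06) for set B. Hbq1b, a theta globin gene that lies between Hba-a1 and Hba-a2 in the RefSeq gene order, rose by 1.32 ± 0.15 (adjusted p = 0.00119), from 7.88, 7.71 and 8.02 to 9.21, 8.94 and 9.44. Its copy Hbq1a, near background, differed by 0.24 ± 0.12 and did not pass (adjusted p = 0.238). The alpha cluster thus held 3 probe sets that rose and, at the embryonic end, Hba-x, which did not pass.

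The adult beta globins were bright in both groups and rose, with calls that depended on single arrays. Their probe sets 10566254 (set A) and 10566258 (set B) each carry the symbols Hbb-bt, Hbb-bs, Hbb-b2 and Hbb-b1, of which Hbb-bs and Hbb-bt are the adult genes of C57BL6 mice. Set A measured 10.71, 11.23 and 10.47 in the EGFP arrays, against 11.91, 11.29 and 11.63 in the EVI1 arrays. Set B measured 10.83, 11.99 and 10.86 against 12.44, 12.36 and 12.89. The groups did not overlap in either set, but in both EGFP replicate 2 was the highest of its group and in set A it came within 0.1 of EVI1 replicate 2. The differences were 0.80 ± 0.23 (1.75-fold, adjusted p = 0.0462) for set A and 1.34 ± 0.31 (2.53-fold, adjusted p = 0.0229) for set B. Set A lost its call with a replicate block (adjusted p = 0.0677), without EGFP replicate 1 (0.117) or 3 (0.146) and without EVI1 replicate 1 (0.143) or 3 (0.145). Set B lost it without EGFP replicate 1 (0.0662) or 3 (0.0842) and without EVI1 replicate 1 (0.0543), 2 (0.0501) or 3 (0.101), by limma in each case. With a replicate block set B kept it (0.0305).

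In the beta cluster the RefSeq gene order runs from the adult genes through Hbb-bh2 and Hbb-bh1 to Hbb-y at its far end. Hbb-bh2, a beta-like gene between the adult and the embryonic ones, measured 6.28 ± 0.11 and 6.31 ± 0.04 (SD, n = 3 arrays each), a difference of 0.03 (adjusted p = 0.920). Beta-like globin genes resemble each other in sequence, and whether adult beta globin RNA binds the Hbb-y probes was not tested. The adult sets and Hbb-y were all higher in the EVI1 arrays, and Hbb-bh1 and Hbb-bh2, which lie between them, averaged 5.61 and 6.31 there. Globins outside red cells, myoglobin (Mb, 0.09 ± 0.14), neuroglobin (Ngb, -0.02 ± 0.11) and cytoglobin (Cygb, 0.12 ± 0.12), did not pass by limma, and none of the 3 had an unadjusted p under 0.05.

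Genes of red cell maturity were partly higher in the same arrays. Among 19 measured markers of the red cell membrane and of late erythroid cells 6 rose and none fell, and 13 missed the threshold. Over all annotated probe sets 8.16% rose and 8.43% fell. The markers' median difference was 0.21, against 0.0021 over all probe sets, and 13 of the 19 had a higher mean in the EVI1 arrays. Car1 (-0.49 ± 0.31) and Sptb (-0.43 ± 0.15) were among those with a lower mean, and neither passed. The list's mean was 7.77 to 7.95 in the EGFP arrays, against 8.15 to 8.40 in the EVI1 arrays. Tmod1, which caps the actin filaments of the membrane skeleton, rose by 1.52 ± 0.13, the anion exchanger Slc4a1 by 1.45 ± 0.22, Bpgm, which makes the bisphosphoglycerate that tunes hemoglobin's oxygen affinity, by 1.07 ± 0.10, Trim10 by 0.93 ± 0.14, glycophorin C (Gypc) by 0.65 ± 0.13 and the erythropoietin receptor (Epor) by 0.46 ± 0.12. Gypc lost its call without EVI1 replicate 3 (adjusted p = 0.0546), and Epor without EGFP replicate 1 or 3 or EVI1 replicate 1 or 3 (up to 0.123). A further Tmod1 probe set differed by 0.14 ± 0.16 and did not pass. Epb42, Rhd and Trim10 lay near background in the EGFP arrays, and Epb42 and Rhd in the EVI1 arrays as well. Without EVI1 replicate 3 the count that rose was 4, and without EGFP replicate 1 it was 5 with 1 fall. The part of red cell precursors in the globin values was not tested.

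Of the 6 heme synthesis enzymes among the members, Urod rose, none fell and 5 did not pass, a share of 16.7% where 16.6% of all annotated probe sets changed. Their median difference was -0.23, and all 6 lay above the olfactory level in both groups. With the replicate number as a block, which pairs arrays of the same number, Alas1 and Cpox fell as well, so 3 of 6 were called against 20.0% of all probe sets.

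Alas1, the synthase of most cells and the entry to the pathway, measured 10.11, 10.34 and 9.93 in the EGFP arrays, against 9.88, 9.49 and 9.30 in the EVI1 arrays. The groups did not overlap, but EGFP replicate 3 and EVI1 replicate 1 were close. The means were 10.12 ± 0.21 and 9.56 ± 0.30 (SD, n = 3 arrays each), a difference of -0.57 ± 0.18 (SE; 95% interval -0.98 to -0.16), which did not pass (limma adjusted p = 0.0676) and passed with the replicate block (0.0396) and without EVI1 replicate 1 (-0.73, 0.0319). Alas2, the synthase of red cell precursors, measured 7.61, 7.27 and 7.38 against 7.48, 6.999 and 7.22. These values overlapped and lay only just above background. The difference was -0.19 ± 0.15 (95% interval -0.54 to 0.17, adjusted p = 0.532).

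The ratio of Alas2 to Alas1 within each array was -2.50, -3.07 and -2.55 in the EGFP arrays, against -2.40, -2.49 and -2.07 in the EVI1 arrays. It changed by 0.38, with group values that did not overlap but all but touched at -2.50 and -2.49 (exact two-sided permutation p = 0.1, the smallest possible; adjusted p = 0.1 over 6 ratios, of which the other 5, with Hbb-y or Urod, were chosen after their values were seen and are not used here). Without EGFP replicate 2 the change was 0.20 (exact permutation p = 0.3). Both synthases had lower means in the EVI1 arrays, and neither passed.

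Of the cytosolic steps, Alad and Uros belong to the pathway but are not members. Alad, which joins aminolevulinate molecules into porphobilinogen, measured 7.69, 8.15 and 7.99 against 8.16, 8.46 and 8.41. Its groups did not overlap, and the difference of 0.40 ± 0.15 did not pass (adjusted p = 0.119) except with the replicate block (0.0358). Uros, which closes the ring, differed by -0.14 ± 0.10 (adjusted p = 0.469). Urod, which trims the side chains of uroporphyrinogen, measured 8.92, 8.999 and 8.87 in the EGFP arrays, against 9.43, 9.67 and 9.34 in the EVI1 arrays. All EVI1 values lay above all EGFP values, by at least 0.3. It rose by 0.55 ± 0.12 (1.46-fold, 95% interval 0.27 to 0.82, limma adjusted p = 0.0179; 0.0144 with the replicate block). The call was lost without EGFP replicate 3 (0.52, adjusted p = 0.0675), EVI1 replicate 1 (0.57, 0.0522) or EVI1 replicate 2 (0.45, 0.0587).

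Of the mitochondrial steps, Cpox, which makes protoporphyrinogen, had the brightest probe set of the 6 enzymes, at 10.04, 10.30 and 10.48 against 9.43, 10.08 and 9.83. EVI1 replicate 2 lay within the EGFP range. The difference of -0.49 ± 0.19 (95% interval -0.92 to -0.06) did not pass (adjusted p = 0.132) and passed with the replicate block (0.0410). Ppox, which oxidises protoporphyrinogen, measured 7.73, 8.37 and 7.48 against 7.60, 7.56 and 7.61, overlapping, with EGFP replicate 2 far above the rest. Its difference of -0.27 ± 0.21 (adjusted p = 0.513) was -0.01 without that array. Fech, which inserts the iron, measured 8.20, 8.71 and 8.31 against 8.64, 8.83 and 8.62. EGFP replicate 2 again lay inside the range of the EVI1 arrays. The difference of 0.29 ± 0.15 (adjusted p = 0.279) became 0.45 without EGFP replicate 2 and then passed (0.0399).

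**Figure D2:**
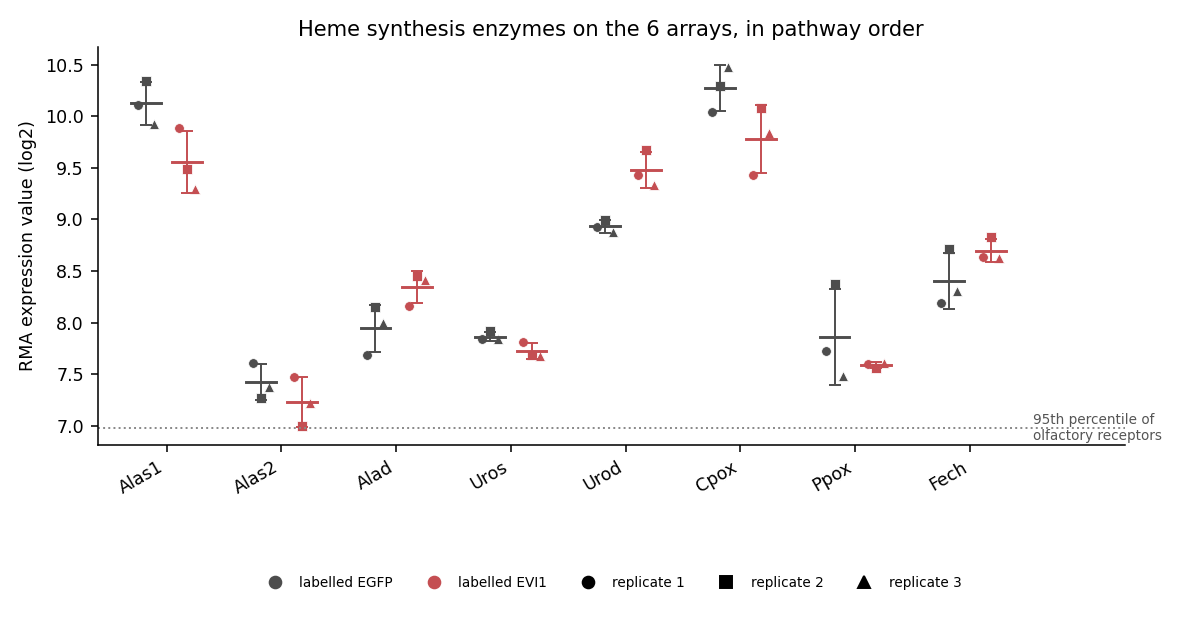
RMA expression values (log2) of 8 heme synthesis enzymes on each array, in the order of the pathway; colours, shapes and bars as defined in the key (mean and SD, n = 3 arrays). The axis starts near 7 and does not reach 0. Urod goes from a mean of 8.93 to 9.48; Alas1, Alad and Uros also part the groups without passing the test, and the other enzymes overlap.

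Set side by side, 1 of 3 embryonic globins and 1 of 6 enzymes passed, both upward. The enzymes' share, 16.7%, was near the 16.6% of all annotated probe sets that changed. Hbb-y differed by 2.76, and the differences of the 6 enzymes ranged from -0.57 to 0.55. The EGFP mean of Hbb-y lay near background, so the sizes are not ranked.

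**Figure D3:**
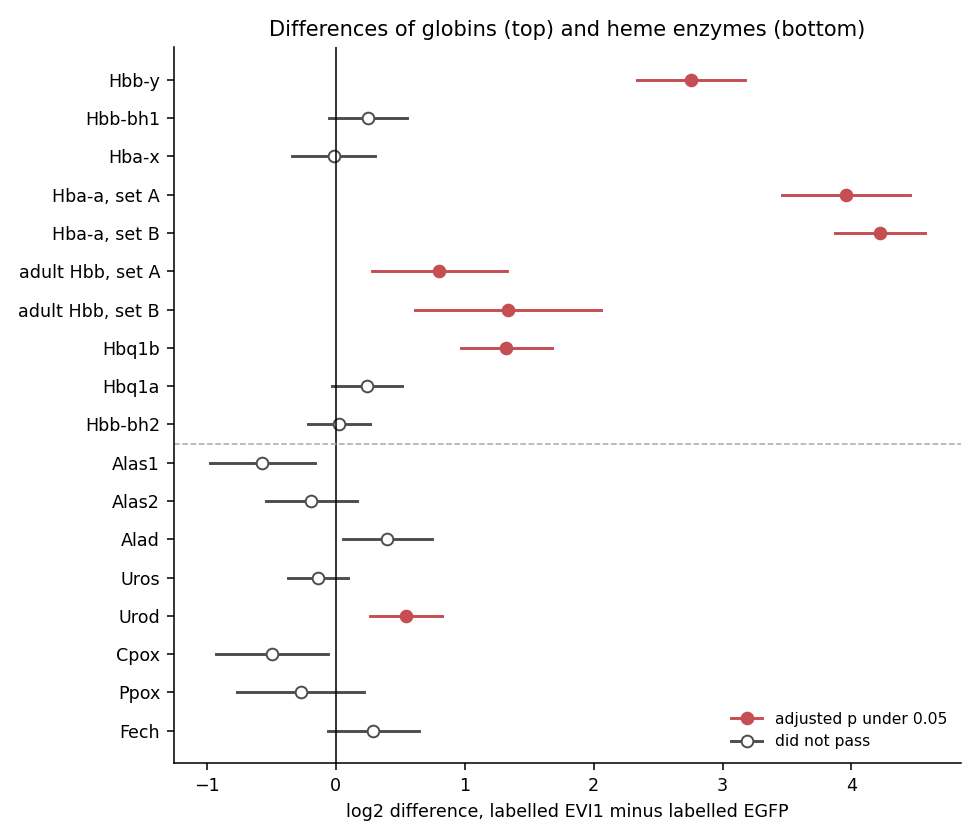
Log2 differences (arrays labelled EVI1 minus arrays labelled EGFP, n = 3 each) with 95% intervals for the globins (above the dashed line) and the heme enzymes (below it); filled red points have a limma adjusted p under 0.05. The adult alpha sets (3.96 and 4.22) and Hbb-y (2.76) lie far to the right, while all 8 enzymes lie between -0.57 and 0.55.

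By likeness of profile, measured as the Euclidean distance between mean-centred log2 values over the 6 arrays among 19937 genes, the nearest genes to Hbb-y were Slc44a4 (distance 0.38), Mmp2 (0.40) and Tspan8 (0.49), which rose by 2.64, 2.49 and 2.86. Those nearest to Alas1 were Mapk8 (0.17), Tmem147 (0.20) and Dus2 (0.20), with differences of -0.52, -0.55 and -0.64. Alas2 lay nearest to Tas2r105, Fnbp4 and Ccdc157, Hbb-bh1 to Il2rb, Vps51 and Ube2z, and Hba-x to Slc22a12, Chrnb3 and Pard3. These distances ran from 0.07 to 0.15, and Alas2, Hbb-bh1 and Hba-x did not themselves pass the test. The 6 arrays of 2 groups share their group difference, so likeness here is a description.

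Several carriers of heme, porphyrin and iron rose. Among 16 measured genes of mitochondrial import and of heme or porphyrin transport there were 4 that rose, 1 that fell and 11 that missed the threshold (median 0.31). For comparison, 8.16% of all annotated probe sets rose and 8.43% fell. Slc48a1, which carries heme out of endolysosomes, rose by 1.20 ± 0.17, Abcb10, a mitochondrial transporter needed for hemoglobin formation, by 0.87 ± 0.11, Tspo, an outer membrane porphyrin-binding protein, by 0.75 ± 0.19 and mitoferrin 1 (Slc25a37), the mitochondrial iron importer of red cell precursors, by 0.42 ± 0.10. Abcg2, which exports porphyrins and marks stem cells, fell by 1.17 ± 0.14. Without EGFP replicate 1, EGFP replicate 3 or EVI1 replicate 2 the number called was 3, of which 2 rose. Slc25a37 lost its call without EGFP replicate 1 or 3 or EVI1 replicate 1 or 2 (adjusted p up to 0.101), and Tspo without EGFP replicate 1 or 3 or EVI1 replicate 2 or 3 (up to 0.117). Of 9 iron-sulfur cluster genes, whose product Fech needs, 1 fell (the chaperone Hspa9, -0.86 ± 0.16), none rose and 8 did not pass. This was a share of 11.1%, where 16.6% of all annotated probe sets changed. With the replicate block the assembly factor Isca1 rose too (limma adjusted p = 0.00435, against 0.0896 without the block), and without EVI1 replicate 1 the list held 1 rise.

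In heme breakdown and sensing 5 of 6 genes rose and none fell, with a median of 0.62, and the groups did not overlap for any of the 6. Over all probe sets 8.16% rose and 31.7% did not overlap. Heme oxygenase 1 (Hmox1), which opens the ring and is induced by heme, measured 10.47, 11.03 and 9.80 in the EGFP arrays, against 12.41, 12.78 and 12.43 in the EVI1 arrays. All EVI1 values lay more than 1 log2 unit above all EGFP values, and the rise was 2.11 ± 0.28 (4.31-fold, limma adjusted p = 0.00233). The constitutive oxygenase Hmox2 rose by 0.46 ± 0.13, the biliverdin reductases Blvra and Blvrb by 0.74 ± 0.11 and 1.04 ± 0.25, and Bach1, a repressor released by heme, by 0.51 ± 0.12. The kinase Eif2ak1, which couples globin translation to heme, differed by 0.35 ± 0.12 and did not pass (adjusted p = 0.0986). The count of rises was 3 without EGFP replicate 1, EVI1 replicate 1 or EVI1 replicate 2 and 2 without EGFP replicate 3 or EVI1 replicate 3; Hmox1 and Blvra passed in every alternative run, and Hmox2 in 6 of 15. Blvrb lost its call without EGFP replicate 1 or 3 or EVI1 replicate 2 or 3 (adjusted p up to 0.1), and Bach1 without EGFP replicate 1 or 3 or EVI1 replicate 1 or 3 (up to 0.0844).

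Iron genes split. In iron uptake, storage and export 2 of 14 genes rose and 2 fell, and 10 missed the threshold (median 0.29). Beside these counts, 8.16% of all annotated probe sets rose and 8.43% fell. The ferritin receptor of autophagy Ncoa4 (0.64 ± 0.10; 0.52 in its other probe set) and transferrin receptor 2 (Tfr2, 0.67 ± 0.16) rose, and the ferrireductase Steap3 (-0.83 ± 0.13) and the transporter Slc39a14 (-0.49 ± 0.11) fell. With the replicate block 4 rose and 3 fell, and 1 rose and 1 fell without EGFP replicate 3 or without EVI1 replicate 2 or 3. Tfr2 lost its call without EGFP replicate 1 or 3 or EVI1 replicate 2 or 3 (adjusted p up to 0.0920), and Slc39a14 on leaving out any 1 array other than EGFP replicate 2 (up to 0.0732).

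Among 24 regulators of the globin genes there were 2 rises and 4 falls, and 18 missed the threshold (median 0.09). The called share was 25%, against 16.6% of all annotated probe sets, of which 8.16% rose and 8.43% fell. Myb, a factor of immature blood cells whose loss favours embryonic globins, fell by 1.61 ± 0.16 (adjusted p = 0.000684), the DNA methyltransferase Dnmt1 by 0.96 ± 0.12, Bcl11a, a repressor of embryonic beta-like globins, by 0.87 ± 0.15 and the adaptor Lmo2 by 0.60 ± 0.13. Lmo2 lost its call without EGFP replicate 3 (adjusted p = 0.0613) or EVI1 replicate 2 (0.0615). The erythroid and megakaryocytic factor Nfe2 rose by 0.90 ± 0.13 and the chromatin remodeller Chd4 by 0.53 ± 0.10. The erythroid activators Gata1, at 0.22 ± 0.17, and Klf1, at 0.09 ± 0.18, did not pass. The sign of the Klf1 difference turned with array weights and without EGFP replicate 2. Tal1, from the same list, differed by 0.47 ± 0.14, and its groups did not overlap. It did not pass by limma (adjusted p = 0.0586) except with the replicate block (0.0355). Of 6 regulators of Alas1, Foxo1 rose (0.70 ± 0.13), Nrf1 fell (-0.46 ± 0.10) and 4 did not pass. The call of Nrf1 was lost without any 1 of 5 arrays, with adjusted p up to 0.0719, and Foxo1 kept its call.

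**Figure D4:**
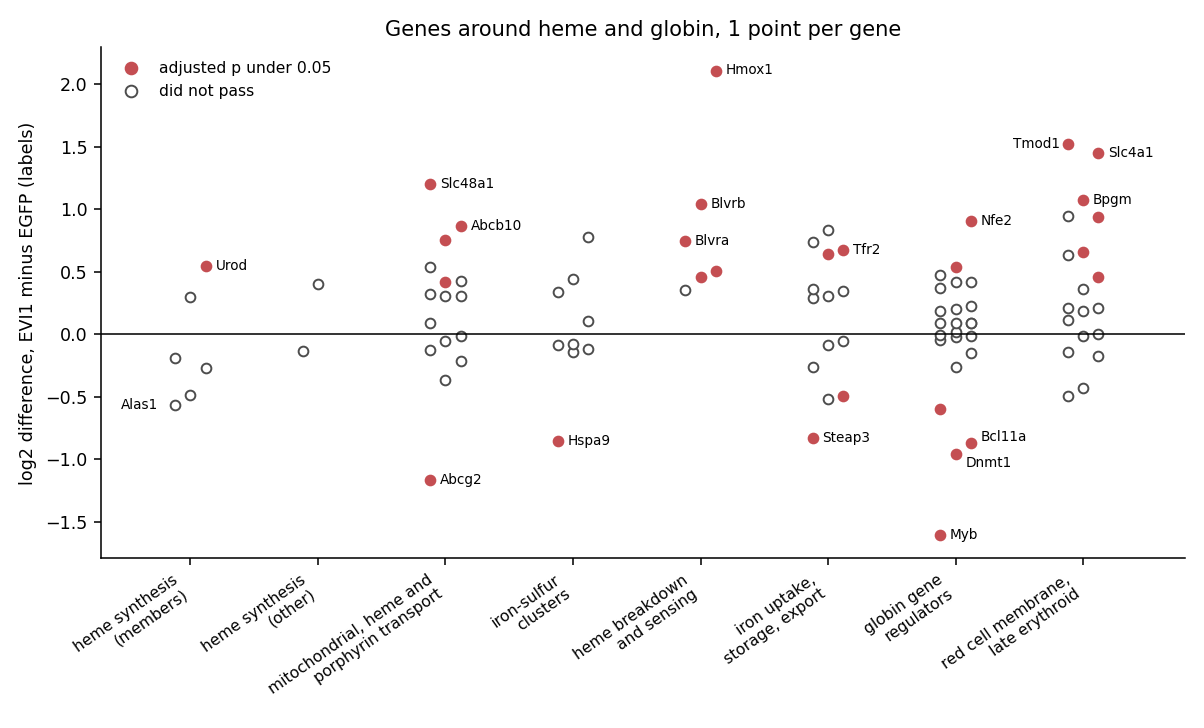
Log2 differences (arrays labelled EVI1 minus arrays labelled EGFP) of the genes around heme and globin, 1 point per gene and 1 column per list; filled red points have a limma adjusted p under 0.05 over all annotated probe sets. In heme breakdown 5 of 6 points are filled and above 0, in heme synthesis 1 of 6 members and none of the other 2 enzymes.

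Markers of other cell types moved as well, and their part in the values above was not tested. Over all annotated probe sets 8.16% rose and 8.43% fell. Of 8 mast cell and basophil markers 6 fell and none rose, with list means of 10.1 to 10.7 in the EGFP arrays, against 8.80 to 9.03 in the EVI1 arrays. Of 10 macrophage markers 2 rose and 1 fell, with list means of 7.75 to 8.04 and 8.08 to 8.15. Near background lay 6 of the 10 in the EGFP arrays, among them Mertk (mean 6.45), which rose, and 5 in the EVI1 arrays. Of 5 megakaryocyte markers 2 rose and 1 fell, with list means of 9.12 to 9.43 and 9.24 to 9.39. With the replicate block, and without any 1 array other than EGFP replicate 2, 1 rose. Of 9 endothelial and stromal markers 3 rose and 1 fell, with list means of 7.44 to 7.67 and 8.14 to 8.42. Of the 3 that rose, Cdh5 and Kdr lay near background in the EGFP arrays (means 6.49 and 6.46).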

How the data were processed

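The deposited values are log2 intensities of 6 single-colour arrays, made by the authors with RMA, per the submitters' processing notes; its version is not given in the sources used here. They were used as deposited, with no filter. Genes were named by the probe annotation: 21640 probe sets carry 1 symbol, 1321 several, and 11799 of 34760 are unnamed here and were left out. Of 174 list symbols 173 are in the RefSeq table (GRCm38.p6). A gene with several probe sets is represented by the brightest; globin probe sets with several symbols were kept.

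The 3 EVI1 and 3 EGFP arrays were compared with limma 3.58.1 in R 4.3.3 (lmFit, eBayes; two-sided), with Benjamini-Hochberg adjustment over the 22961 annotated probe sets; "rose" and "fell" mean an adjusted p under 0.05. On simulated arrays of these 22961 probe sets, a small part of them was given known changes. Of log2 changes of 1, 73% were recovered, and of 2, 94%, with 6 false calls. In the data a larger share, 16.6%, was called, so these percentages need not hold for the real arrays. The Alas2 to Alas1 ratio within arrays was tested by exact permutation. The replicate block assumes that arrays of the same number are paired, which no label states. Deviations of same-numbered arrays correlated at r = 0.462, 0.258 and 0.170. Those of differently numbered arrays were not compared, so these values do not establish a pairing. Array data have no read depth; the number of arrays limits precision.

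The named genes were the members, the other heme enzymes and globins, and up to 5 per list with the smallest p. Lmo2, Epor, Gata1, Klf1, Tal1, Eif2ak1, Epb42, Rhd, Car1 and Sptb were added after their values were seen. Members and lists were chosen with earlier results of these data known. Promoter windows are from RefSeq.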

Additional observations from a re-analysis of the deposited data

How the results depend on the processing

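The alternatives were a replicate block, other sets of probe sets in the fit, filters on dim probe sets, further quantile normalisation or median centring, another spread estimate, array weights, and leaving out each array. Hbb-y passed in all 15 (2.56 to 2.87), as did both adult alpha sets in all 14 that hold them. The number of embryonic globins that changed was 1 throughout. The number of heme enzymes that changed was 3 with a replicate block, 2 without probe sets under the median (Urod and Alas1), and between 0 and 2 when 1 array was left out; with 0, without EGFP replicate 3 or EVI1 replicate 2, limma gave unadjusted p under 0.05 for 2 and 3 of the 6. Probe sets changed numbered 2263 to 4281 with 1 array left out, the lowest without EVI1 replicate 3, and 4587 with a replicate block. Among the genes tested one by one under all alternatives, the replicate block changed the calls of Alas1, Cpox, Alad and adult beta set A and no other. List counts without 1 array and with the block were chosen after seeing the data. Differences near 0 changed sign: Hba-x (-0.15 to 0.079 with 1 array left out), Hbb-bh2 (-0.010 with array weights, -0.024 to 0.082 with 1 array left out) and Klf1 (-0.0084 and -0.11 to 0.21). The change of the Alas2 to Alas1 ratio was 0.20 to 0.48 with 1 array left out, and 0.38 with the replicate block (exact paired p = 0.25, the smallest possible). No scaling moved the median of all probe sets by over 0.1. Signal near background limits Hbb-bh1 in both groups and Hbb-y in the EGFP arrays. Hba-x and Alas2 lay only just above background in both groups. With the fit on all 34760 probe sets both adult beta sets lost their calls (adjusted p = 0.106 and 0.0646); further quantile normalisation (0.0576) and median centring (0.0579) lost that of set A.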
